A study of Homo sapiens with 4 samples.

Results

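The 46 genes described here form the core of the Wnt pathway: 16 WNT ligands, 10 Frizzled receptors, the coreceptors LRP5 and LRP6, 4 secreted inhibitors, 3 dishevelled genes, 4 genes of the destruction complex, CTNNB1, 4 TCF/LEF factors and the target genes MYC and CCND1. They were taken by name, as members of the pathway, from the 27953 genes or identifiers on the array. They were read by 57 of the 34127 probes. RNA from SB cells and RNA from SCt cells were hybridized together on each of 4 dual-channel Agilent arrays. SAS is a human cell line of tongue squamous cell carcinoma. SB cells are SAS cells that stably carry the lentiviral construct pLKO.1-LYRIC shRNA-B, which targets AEG-1 (also called LYRIC, gene symbol MTDH), and SCt cells are the SAS control, labelled CTL. The control construct is the pLKO.1 vector in the labels and a scrambled shRNA in the study's methods. Both cell types were kept under puromycin (2 μg/ml, 14 days) to select stable clones, so that a single shRNA sequence and its clones stand for the knockdown. The labels call the arrays biological replicates, and the study's methods, which describe independent replicates for the in vitro comparisons in another number, do not say whether the arrays came from separate cultures, so the p-values measure the spread between these arrays, which may be technical.

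RNA from SB cells carried Alexa 647 (red) and RNA from SCt cells Alexa 555 (green) on all 4 arrays. As 0 arrays had the dyes swapped, a dye preference of a probe cannot be told apart from a difference between the cells. All arrays lay on 1 slide. Between 84.7% and 90.3% of the spots of an array were well above background in a given channel. Keratins and the other squamous markers were detected above background in each channel of every array for 9 of 9 genes, with none past the threshold between SB and SCt cells. The leukocyte markers were also above background for 5 of 5 genes, the endothelial markers for 4 of 4 and the fibroblast markers for 3 of 5. Of the other fibroblast markers, COL3A1 was above background on 0 arrays, and PDGFRB on 2 for SB cells and 1 for SCt cells. A signal above background on these arrays is thus not in itself a sign of a cell type. AEG-1, the target of the shRNA, gave log2 ratios of SB over SCt of −3.18, −3.01, −3.12 and −3.41 on the 4 arrays. The level was thus 9.07-fold lower after the knockdown (adjusted p = 5.19e-10, limma).

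In the canonical Wnt pathway, a secreted WNT ligand binds a Frizzled receptor together with LRP5 or LRP6 at the cell surface. Dishevelled proteins then disable a destruction complex of APC, AXIN and GSK3B, which otherwise marks beta-catenin for degradation, and beta-catenin enters the nucleus and acts with TCF/LEF factors on target genes. Other branches of the pathway act without beta-catenin, among them the planar polarity branch, which organizes cell orientation and movement. The pathway is known for its part in the renewal of stratified epithelia, and LEF1 has been placed downstream of AEG-1 in other tumours. The array reads RNA, and the activity of this pathway is set to a large part by protein stability, which these data do not measure.

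TCF/LEF factors recognize the short sequence CTTTG, which reads CAAAG on the opposite strand, and several genes of the pathway are themselves known targets of these factors. The stretches of 250 bases upstream of the annotated start are shown for LEF1, a TCF/LEF factor and known target, and for DKK1, a secreted inhibitor and known target, because both have the core in this window and their expression is given later. The sequences are from RefSeq (GRCh38.p14), read 5′ to 3′ on the strand of the gene and end at the base before the start, with each core in capitals. LEF1 lies at chr4:108166302-108166551 on the minus strand, and DKK1 at chr10:52314031-52314280 on the plus strand.
LEF1: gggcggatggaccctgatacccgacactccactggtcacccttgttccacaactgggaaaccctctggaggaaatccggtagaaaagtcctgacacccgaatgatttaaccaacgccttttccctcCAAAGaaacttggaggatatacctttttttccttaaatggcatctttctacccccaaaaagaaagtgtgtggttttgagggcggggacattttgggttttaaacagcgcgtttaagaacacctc
DKK1: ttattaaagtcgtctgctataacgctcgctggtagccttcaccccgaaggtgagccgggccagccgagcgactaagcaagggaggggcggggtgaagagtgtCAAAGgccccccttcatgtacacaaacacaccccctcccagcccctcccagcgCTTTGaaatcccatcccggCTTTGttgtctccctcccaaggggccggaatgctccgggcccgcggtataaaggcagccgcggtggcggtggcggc
The LEF1 stretch held 1 core, whose first base lay at −124 from the start, and the DKK1 stretch held 3, at −148, −95 and −76. Of the 46 genes, 32 were found in the promoter table, and 7 of them had a core in such a window (DKK1, FZD1, LEF1, TCF7, TCF7L2, WIF1 and WNT3). The core is short and common: 42.1% of all 35116 windows of the same length held it on either strand. The longer form CTTTGAT, which contains the core and was sought on both strands, was present in 2.26% of all windows and in 0 of the 32 genes. A gene was counted if any of its windows held the sequence, whereas the percentages are over single windows. The counts of genes and these percentages are thus in unlike units. A match is a description of these letters and not a binding site.

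For the expression of the pathway, the log2 ratio of SB over SCt was tested against 0 for each probe whose signal stood well above background on 4 of 4 arrays in at least 1 channel, and each gene was read at its brightest such probe. A call is an adjusted p under 0.05 from limma, with Benjamini-Hochberg adjustment over all 28505 kept probes. Of the 46 genes, 42 passed the filter on dim probes. WNT4, WNT5A and WNT16 were above background on 0 of 4 arrays in either channel, and FZD8 was above background on 1 array for SB cells and on 2 for SCt cells, so no ratio is given for these 4 genes. Of the 42 genes, 1 was lower in SB cells (LRP6), 0 were higher and 41 were not past the threshold. Over all 23484 genes tested, 3.51% were called, 2.26% as lower and 1.26% as higher in SB cells. The share among the Wnt genes was 2.38%, near that background. At an unadjusted p under 0.05, 11 of the 42 genes (26.2%) passed, against 18.1% of all genes. With each array centred on its median in place of the loess curve, 10 Wnt genes were called higher and 5 lower, while the share called among all genes rose to 31.9%.

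The ratios of the Wnt genes were small. They ranged from −0.30 to 0.21 with a median of 0.0103, beside a median of 0.0125 over all genes tested. Of the 42 genes, 24 lay above 0 and 18 below, and 0 differed by more than 0.5 on the log2 scale. The median half-width of the 95% confidence interval was 0.14, before any adjustment for the number of probes. After adjustment, ratios of −0.28 (WNT10A) and −0.25 (WNT7A) did not pass the threshold. The SD between arrays ran from 0.0238 to 0.384 with a median of 0.119, close to the 0.112 of all genes, and 14 of the genes had the same sign on every array with a value. Values are given below as the mean log2 ratio of SB over SCt ± SD over 4 arrays unless fewer are named, and a negative value is a lower level in SB cells.

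**Figure D1:**
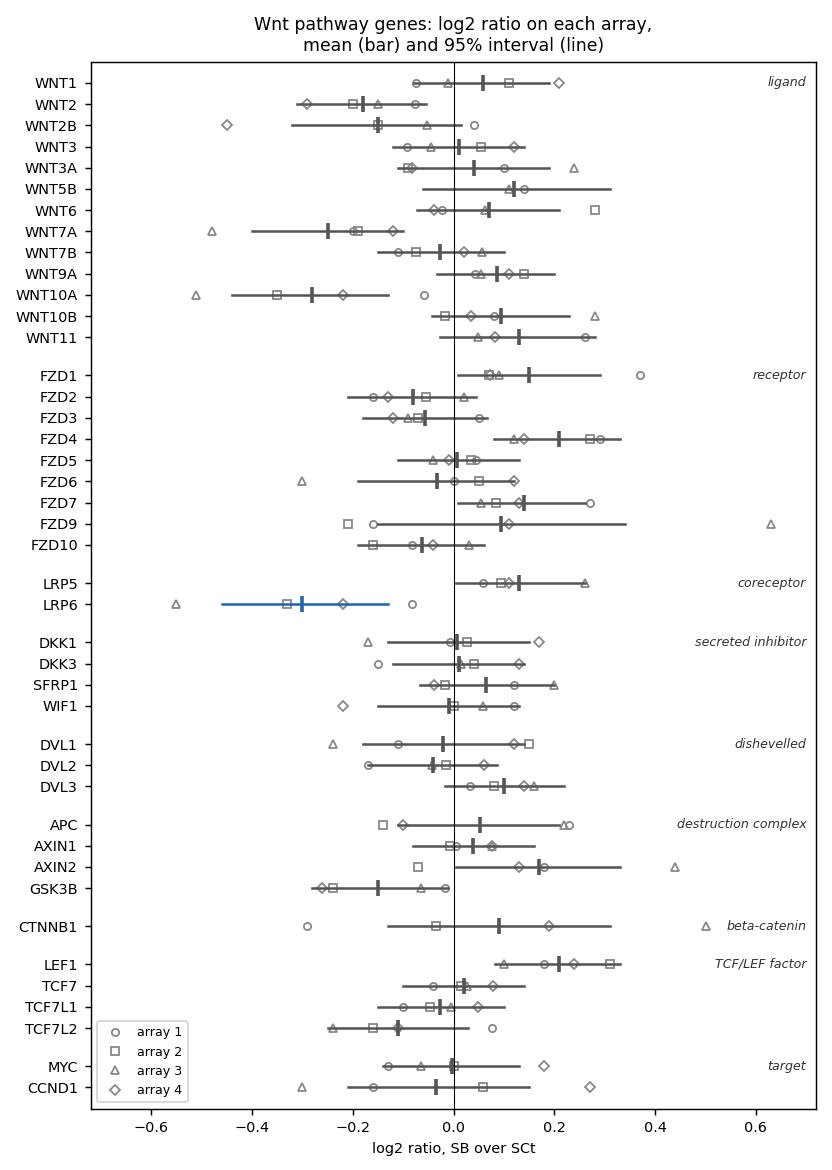
The log2 ratio of SB over SCt (x axis) for each of the 42 Wnt genes with a kept probe, grouped by role (y axis), with the value on each array (open symbols), the mean (vertical bar) and its 95% confidence interval from limma (line). LRP6, at −0.30, is the gene past the threshold (blue), and the means of all 42 genes lie between −0.30 and 0.21.

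Among the ligands, WNT10A, WNT7A and WNT2 had values below 0 on all 4 arrays, and none of the 13 ligands tested was called at its brightest probe. WNT10A, a canonical ligand of ectodermal tissues, had the largest ratio of the group and gave −0.058, −0.35, −0.51 and −0.22 on the 4 arrays. The mean was −0.28 ± 0.19, with a 95% interval of −0.44 to −0.13 and an adjusted p of 0.0534 by limma. The value was near 0 on array 1 and lowest on array 3, so that the arrays differed in size but not in direction. WNT7A, a ligand that can signal through beta-catenin or without it, gave −0.25 ± 0.16 (adjusted p = 0.0665, limma), and it was lowest on array 3 (−0.48). WNT2, another canonical ligand, gave −0.18 ± 0.089 (adjusted p = 0.114, limma). Its signal was weak, with a mean log2 level of 6.67 in SB and 6.85 in SCt cells. FZD8, which did not pass the filter, was at 6.29 and 6.37. Without the normexp offset WNT2 was at −0.35 (adjusted p = 0.0418, limma), and with the scanner software's ratios WNT7A was at −0.40 (adjusted p = 0.0296, limma).

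WNT7B, a ligand made by epithelia that acts on beta-catenin, was read by 3 probes that differed from each other. The brightest (A_33_P3256920) gave −0.11, −0.074, 0.057 and 0.021, with a mean of −0.027 ± 0.079 (adjusted p = 0.847, limma). The second probe (A_33_P3248903) gave −0.64, −0.36, −0.64 and −0.39, a mean of −0.51 ± 0.15 and a 1.43-fold lower level in SB cells (adjusted p = 0.00158, limma). Its log2 level was 8.81, 9.68, 9.57 and 8.81 in SB cells and 9.45, 10.04, 10.22 and 9.20 in SCt cells, so that SB cells were lower on every array although the ranges over arrays overlapped. The third probe (A_24_P911607) gave −0.14, −0.074, −0.28 and −0.12, all below 0 but not past the threshold (adjusted p = 0.176, limma). Within arrays, the second probe lay below the brightest by 0.53, 0.29, 0.70 and 0.41 on the log2 scale. The second probe was called in 13 of 14 settings, the exception being the methods' t-test, with ratios between −0.56 and −0.46, and the mean over the probes of WNT7B was −0.23 (adjusted p = 0.0435, limma). All of these probes carry the same RefSeq accession, and whether they read different ends or forms of the transcript was not tested.

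The other 9 ligands were spread around 0, between −0.15 and 0.13. WNT2B, a relative of WNT2, gave −0.15 ± 0.21 and was lowest on array 4 (−0.45). WNT11 and WNT5B, which are known mainly for signalling without beta-catenin, gave 0.13 ± 0.11 on 3 arrays and 0.12 ± 0.024 on 2 arrays, since outlier spots were left out. The signal of WNT11 was weak, with a mean log2 level of 6.63 in SB and 6.50 in SCt cells. The ratio of WNT11 ran from −0.23 with median centring to 0.29 without the normexp offset, so its sign and size depended on the processing. WNT9A gave 0.086 ± 0.045 and was above 0 on all arrays. WNT1, WNT3, WNT3A, WNT6 and WNT10B, all of which can activate beta-catenin, gave means between 0.010 and 0.094. Their SDs, between 0.10 and 0.16, were larger than their means. The other kept probe of WNT3A had a mean of −0.047 against 0.041 for the brightest, and neither was past the threshold. These WNT3A probes differed widely in level, at a mean log2 level of 7.49 and 13.65 in SB cells.

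The Frizzled receptors bind the ligands at the cell surface, and 0 of the 9 tested were past the threshold. FZD4, which also serves the ligand norrin in blood vessels, had the largest ratio and gave 0.29, 0.27, 0.12 and 0.14 on the 4 arrays. The mean was 0.21 ± 0.087, with a 95% interval of 0.081 to 0.33 and an adjusted p of 0.0751 by limma. All arrays lay above 0, those of arrays 3 and 4 nearer to it. FZD1 and FZD7, closely related receptors, gave 0.15 ± 0.15 and 0.14 ± 0.10 and were also above 0 on all arrays (adjusted p = 0.236 and 0.237, limma). The mean of FZD1 rested on array 1 (0.37), the other arrays lying between 0.070 and 0.090. FZD9 varied most of all Wnt genes, from −0.21 on array 2 to 0.63 on array 3, around a mean of 0.094. Its probe was very bright, with a mean log2 level of 16.24 in SB and 16.15 in SCt cells. The keratin KRT14 was at 16.03 and 15.89. Whether the signal of this probe is RNA of FZD9 was not tested. FZD2, FZD3, FZD5, FZD6 and FZD10 had means between −0.080 and 0.007, and each had arrays on both sides of 0.

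The coreceptors LRP5 and LRP6 had ratios of opposite sign, and that of LRP6 was past the threshold. LRP6, the coreceptor that is phosphorylated when a WNT ligand binds and then recruits AXIN, was the gene called at its brightest probe. Its log2 level was 8.86, 8.90, 8.67 and 8.54 in SB cells and 8.94, 9.23, 9.22 and 8.75 in SCt cells on the 4 arrays. SB cells were lower on every array, by little on array 1 and most on array 3, while the ranges of the groups over arrays overlapped. The log2 ratios were −0.082, −0.33, −0.55 and −0.22, with a mean of −0.30 ± 0.20, a standard error of 0.0736 and a 95% interval of −0.46 to −0.13. LRP6 was thus 1.23-fold lower in SB cells, and its adjusted p of 0.0497 by limma lay just under the threshold. The ratio was below 0 in all 15 settings tried (−0.37 to −0.21), and it was called in 7 of them. Without array 2 the adjusted p was 0.17 by limma, and without array 3 it was 0.247, with a ratio of −0.21.

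LRP5, the related coreceptor, which is also known for its part in bone mass, gave 0.059, 0.094, 0.26 and 0.11. Its mean was 0.13 ± 0.087, with a 95% interval of 0.004 to 0.26 and an adjusted p of 0.249 by limma. Within arrays, the ratio of LRP5 exceeded that of LRP6 by 0.14, 0.43, 0.81 and 0.33, with a mean of 0.43 ± 0.28. This difference between the genes had the same sign on every array. With 4 arrays of one sign, an exact two-sided sign-flip test cannot give a p below 0.125.

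**Figure D2:**
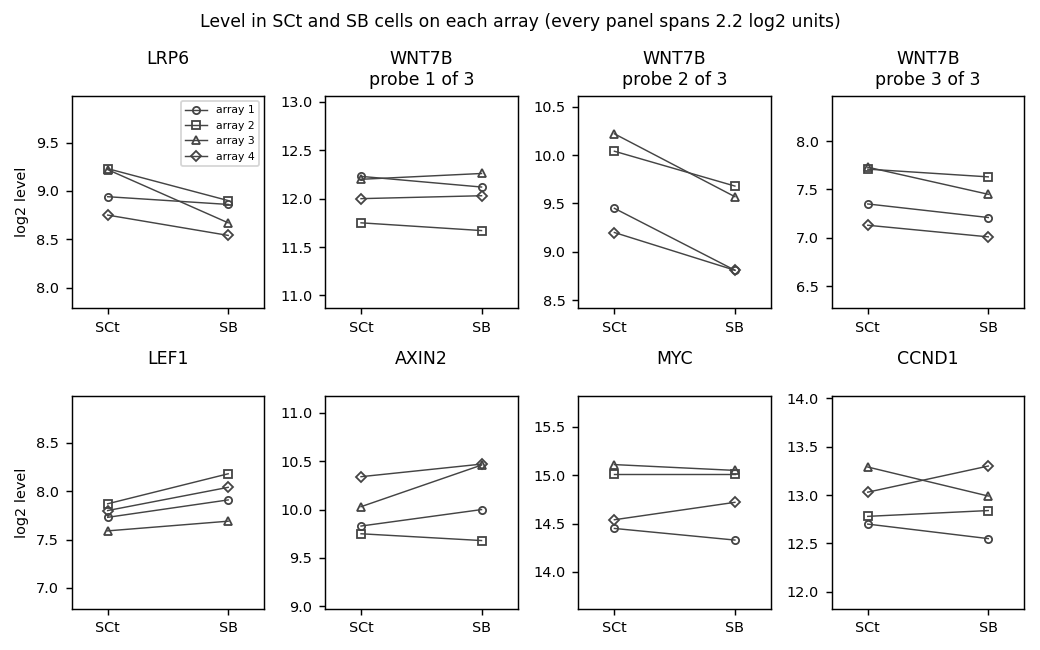
The log2 level of LRP6, the 3 kept probes of WNT7B, LEF1, AXIN2, MYC and CCND1 in SCt and SB cells (x axis), with the values of each array joined by a line and every y axis spanning 2.2 log2 units. LRP6 and the second WNT7B probe slope downwards on all 4 arrays and LEF1 upwards, whereas the lines of AXIN2, MYC and CCND1 run in both directions.

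The secreted inhibitors keep ligands or coreceptors from signalling, and their 4 genes did not pass the test. DKK1, which binds LRP5 and LRP6 and whose upstream stretch held 3 cores, gave 0.006 ± 0.14, with a 95% interval of −0.13 to 0.15. SFRP1, which binds WNT ligands, gave 0.12, −0.016, 0.20 and −0.039, the largest mean of the group at 0.065 ± 0.11 (adjusted p = 0.613, limma). WIF1, another ligand-binding inhibitor, gave −0.009 ± 0.15. DKK3, a relative of DKK1 that does not bind the coreceptors in the same way, gave 0.010 ± 0.12, and its other probe gave 0.10 ± 0.11.

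The dishevelled genes relay the signal from the receptors to the destruction complex. DVL3 gave 0.033, 0.081, 0.16 and 0.14, a mean of 0.10 ± 0.057 (adjusted p = 0.345, limma), and it was the member of this group with all arrays above 0. DVL1 gave −0.020 ± 0.19, and its other probe gave −0.093 ± 0.24 with the same sign as the first on every array. DVL2 gave −0.041 ± 0.10.

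Of the destruction complex, GSK3B, the kinase that phosphorylates beta-catenin, was below 0 on all arrays with a mean of −0.15 ± 0.12 (adjusted p = 0.23, limma). AXIN2, a scaffold of the complex and a widely used readout of beta-catenin activity, gave 0.18, −0.070, 0.44 and 0.13. Its mean was 0.17 ± 0.21, with a 95% interval of 0.004 to 0.33 and an adjusted p of 0.253 by limma. The arrays disagreed in sign, and the mean fell to 0.079 without array 3. The other AXIN2 probe was too dim to be tested. AXIN1, the scaffold made in most cells, gave 0.038 ± 0.045. APC, the tumour suppressor that holds the complex together, gave 0.052 ± 0.20 at its brightest probe and −0.11 ± 0.076 at another probe, which was spotted 10 times on each array, and neither was past the threshold.

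CTNNB1, which encodes beta-catenin, was read by a pair of probes with different means. The brightest gave −0.29, −0.034, 0.50 and 0.19, from lower in SB cells on array 1 to higher on array 3. Its mean was 0.091 ± 0.33, with a 95% interval of −0.13 to 0.31 and an adjusted p of 0.682 by limma. The other probe, spotted 10 times, gave −0.065, 0.10, −0.041 and −0.25, a mean of −0.065 ± 0.14 (adjusted p = 0.643, limma). The SD between its spots on an array was 0.0244 to 0.0456, below the SD of 0.14 between arrays.

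LEF1 had the highest ratio of the TCF/LEF factors. Its log2 level was 7.91, 8.18, 7.69 and 8.04 in SB cells and 7.73, 7.87, 7.59 and 7.80 in SCt cells. SB cells were higher on each array, with overlapping ranges over arrays. The log2 ratios were 0.18, 0.31, 0.10 and 0.24, with a mean of 0.21 ± 0.089, a 95% interval of 0.082 to 0.33 and an adjusted p of 0.0738 by limma. The difference did not pass the threshold in any of 15 settings (0.14 to 0.30). TCF7 and TCF7L1, the former mostly an activator and the latter mostly a repressor in the absence of beta-catenin, gave 0.020 ± 0.048 and −0.026 ± 0.064. TCF7L2, the main factor of the intestine, gave −0.11 ± 0.13 at its brightest probe, and 0.12 ± 0.043 and 0.050 ± 0.10 at its other probes, none past the threshold. In SB cells the mean log2 level of these TCF7L2 probes was 15.34, 10.62 and 9.49.

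The targets MYC, a driver of growth, and CCND1, the cyclin that starts the cell cycle, did not differ beyond the spread between arrays. MYC gave −0.13, 0.000, −0.064 and 0.18, a mean of −0.003 ± 0.13 with a 95% interval of −0.14 to 0.13 (adjusted p = 0.986, limma). CCND1 gave −0.16, 0.058, −0.30 and 0.27, a mean of −0.034 ± 0.25 with a 95% interval of −0.21 to 0.15 (adjusted p = 0.872, limma). Both genes were higher in SB cells on array 4 and lower on arrays 1 and 3. Each was spotted 10 times per array. The SD between spots was 0.0177 to 0.0591 for MYC and 0.024 to 0.0718 for CCND1. Of the 9 Wnt genes with a probe spotted 10 times, 6 had an SD between arrays above the highest SD between spots, MYC and CCND1 among them, and 3 (FZD5, APC and TCF7) did not. The SD between arrays is that of averages over a probe's spots, whereas the SD between spots is that of single spots. The 3 genes are therefore not shown to vary by spot noise alone.

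The median log2 ratio of the 42 genes was −0.00332, −0.00979, 0.0289 and 0.0732 on the 4 arrays, and that of all genes was 0.00281, 0.00564, 0.0247 and 0.00889. The difference between these medians was not tested. The correlation of log2 ratios between arrays over all probes was 0.0576 to 0.438, across probes, which are not independent replicates.

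**Figure D3:**
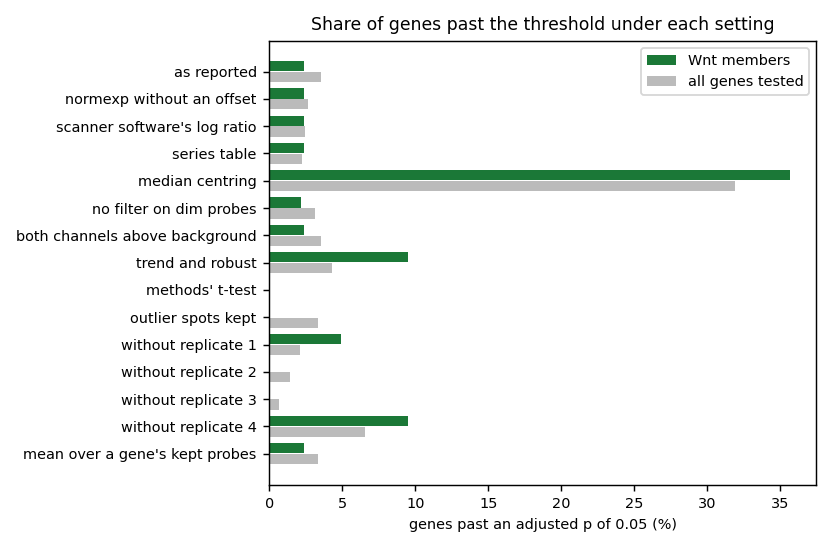
The percentage of genes past an adjusted p of 0.05 (x axis) among the Wnt genes (green bars) and among all genes tested (grey bars) under each setting (y axis). As reported, the shares were 2.38% and 3.51%, and the Wnt share ran from 0 to 9.52% under the other settings except median centring, where it was 35.7% against 31.9% of all genes.

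Beyond these genes, a list of 82 other genes of the pathway was read, of which 67 had a kept probe. Here 2 genes were higher in SB cells and 5 lower, 7 of 67 in all (10.4%), beside 3.51% of all genes tested. The list was drawn up with earlier results of these data known, so its share is a description and not independent evidence. The planar polarity and non-canonical branch held 3 of the 7, out of 7 genes tested. VANGL2, a core membrane protein of planar polarity, fell on all arrays with log2 ratios of −0.58, −0.50, −0.70 and −0.32. Its mean was −0.53 ± 0.16, a 1.44-fold lower level (adjusted p = 0.00149, limma), and the ratio was −0.80 without the normexp offset and −0.88 with the scanner software's ratios. The signal of VANGL2 was the weakest of the 7 genes called, with a mean log2 level of 6.97 in SB and 7.49 in SCt cells. It was read at 1 probe with 1 spot per array, and its fold size depended on these settings. DAAM1, a formin that links dishevelled to the actin skeleton, fell by 0.31 ± 0.043 on the log2 scale (adjusted p = 0.0103, limma). PRICKLE1, a cytoplasmic partner of VANGL2 in planar polarity, rose by 0.31 ± 0.12 (adjusted p = 0.0175, limma). The direction was thus not the same for the planar polarity genes called.

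The other 4 calls were among 16 known or proposed target genes, which are also controlled by other pathways. MET, the receptor of hepatocyte growth factor, gave −0.35 ± 0.069 (adjusted p = 0.00625, limma), and JUN, a subunit of the transcription factor AP-1, gave −0.35 ± 0.086 (adjusted p = 0.00682, limma). VEGFA, the main growth factor of blood vessels, gave −0.40 ± 0.24 (adjusted p = 0.0203, limma) and was lowest on array 1 (−0.75). ID2, an inhibitor of basic helix-loop-helix factors, gave 0.91, 0.21, 0.33 and 0.22, a mean of 0.42 ± 0.33 (adjusted p = 0.042, limma). ID2 was called in 5 of 15 settings and VEGFA in 9, and in the others their adjusted p-values reached 0.42 and 0.355. Without array 1, VEGFA was at −0.28 and ID2 at 0.25, with adjusted p-values of 0.058 and 0.0798 by limma. Second probes of VEGFA and ID2 were past the threshold in the same direction, at −0.45 and 0.40. Calls were also lost without array 2 (VEGFA, ID2, DAAM1 and PRICKLE1) and without array 3 (the same genes and MET), whereas VANGL2 and JUN were called without any array in turn.

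None of the 5 other genes of ligands and their export, 5 of the R-spondin axis, 6 receptors, 2 secreted inhibitors, 16 cytoplasmic regulators and 10 nuclear cofactors tested was past the threshold. The median log2 ratio of the 67 genes was −0.0301. A further 15 genes of the list, among them LGR5, NOTUM, SOST and the R-spondins RSPO1, RSPO2 and RSPO4, did not pass the filter on dim probes. RNA was read in bulk, so that fewer cells expressing a gene and less of its RNA per cell cannot be told apart.

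**Figure D4:**
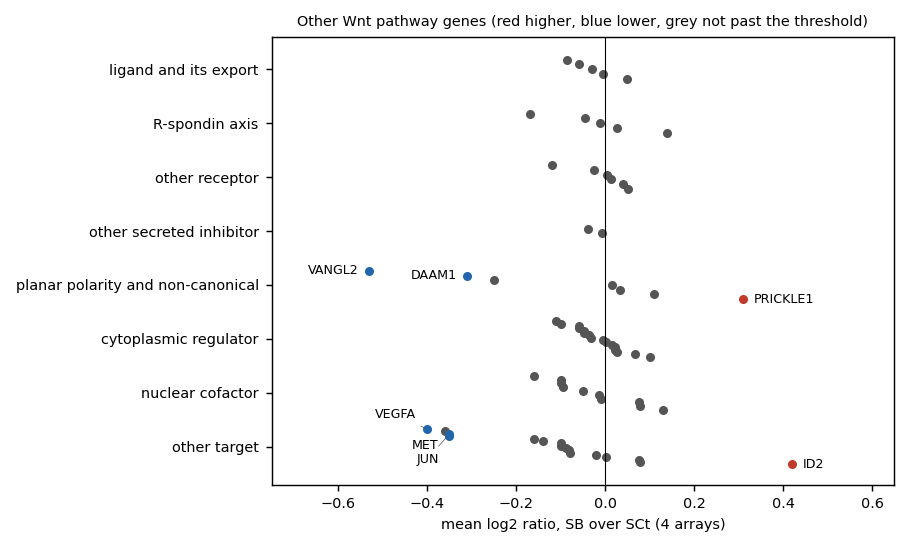
The mean log2 ratio of SB over SCt (x axis) for the 67 other Wnt pathway genes with a kept probe, grouped by role (y axis), with genes past the threshold in red (higher in SB) or blue (lower). The called genes lie among the planar polarity genes and the other targets, from −0.53 for VANGL2 to 0.42 for ID2.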

How the data were processed

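Total RNA of SB and SCt cells was labelled from 15 μg each and hybridized on 4 dual-channel arrays. The authors deposited, for each array, the scanner output of Agilent Feature Extraction 10.5.1.1, with the median red and green intensity and the local background of each spot on a linear scale, not normalized, and the software's log10 ratio of red over green. The deposited table of the whole series holds log2 values of SB over SCt. Agilent's quality flags in the same files, given as yes or no values, were deposited with no other unit. No column of the files held values of another sample.

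Processing used limma 3.58.1 in R 4.3.3. The normexp background correction had an offset of 50, which makes ratios of weak spots smaller, and the 1377 control spots and 814 to 1168 outlier spots per array were removed. A loess curve was fitted within each array to normalize the ratios, and spots of a probe were averaged (999 probes had 10 spots). A probe was kept if at least 1 channel stood well above background on 4 of 4 arrays and at least 2 arrays had values. The mean ratio was tested against 0 with lmFit and eBayes, with Benjamini-Hochberg adjustment over 28505 probes. Levels are log2 values after loess and Aquantile normalization. Median intensities were used because the files hold these, and the number of arrays limits the precision. Probes were named through their accession in RefSeq (24826 of 34127 matched), and the brightest kept probe stood for a gene. Probes of the same gene could differ widely in level, and which of them reads the gene best was not tested.

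The genes, the other lists and the tests were chosen with earlier results of these data known. Values on every array are given for genes past the threshold at any kept probe, for AXIN2, LEF1, CTNNB1, MYC and CCND1, and for the largest ratio in each role, and the other pathway genes are named where called. The steps were tested on simulated arrays, in which the planted differences were larger than any mean ratio of the Wnt genes. That test therefore does not cover differences of the size reported here. Alternatives changed 1 step at a time: the offset (none), the source of the ratios (the software's own, or the series table, in which outlier spots could not be left out, so that both steps changed), the normalization (median centring), the filter (none, or on both channels), the test (trend and robust eBayes, or the methods' t-test), outlier spots (kept), the arrays (without each in turn) and the probe of a gene (the mean over all kept). With the mean over all kept probes, the fit and the adjustment were over genes in place of probes, so these changed as well.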

Additional observations from a re-analysis of the deposited data

Results flagged for a closer look

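FZD1 had an array far from the others. Its log2 ratio of SB over SCt was 0.37 on array 1 and between 0.070 and 0.090 on the other arrays. The gap to the nearest array was 0.933 of the whole range, above Dixon's 95% critical value for 4 samples. Of 41 genes examined in this way, AEG-1 and the 40 Wnt genes with values on 4 arrays, 1 was found, and chance gives about 5%.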

How the results depend on the processing

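Of 684 values of single genes under the alternatives, 22 came past the threshold with the same sign and 34 no longer passed it. A further 3 came past it with the sign reversed. The sign turned in 46 values of 24 genes, 15 of them with median centring; 43 were called in neither setting and 3 were. Of AEG-1, the ratio of −3.18 was past the threshold in every setting but the methods' t-test, where the adjusted p was 0.143. The number of Wnt genes called, 1 as reported, was 15 with median centring (10 higher, 5 lower), 4 with trend and robust options, 0 with the methods' t-test (5 at an unadjusted p under 0.05), 0 with outlier spots kept (10 at an unadjusted p under 0.05, limma), and 0 to 4 with each array left out, 0 without array 2 or 3 (7 and 8 at an unadjusted p under 0.05, limma). LRP6 was replaced by WNT2 (−0.35) with normexp without an offset, by WNT7A (−0.40) with the software's ratios and the series table, and by WNT7B (−0.23) with the mean over probes. In that last setting LRP6, which has 1 kept probe, stayed at −0.30 (adjusted p = 0.0542, limma). The fit and the adjustment there were over genes in place of probes. WNT10A, WNT7A and FZD4 joined LRP6 with trend and robust options and without array 4. The median of the Wnt genes was 0.0999 with median centring, beside 0.0715 for all genes. Median centring, which leaves the dependence on intensity in the ratios, also gave the reversed signs, with WNT11 at −0.23, TCF7L2 at 0.23 and MYC at 0.30, all called there. The cause was not tested. Of the other pathway genes, 19 were called with median centring (where DAAM1 was at −0.20 and MET at −0.22), 0 with the methods' t-test (10 at an unadjusted p under 0.05) and 2 to 10 with each array left out, against 7. Over all probes, 1055 calls (376 higher, 679 lower) became 698 with the series table (which also keeps outlier spots), 8937 (5599 higher, 3338 lower) with median centring, 0 with the methods' t-test (3936 at an unadjusted p under 0.05) and 204 to 1977 with each array left out. The ratio of an array is itself the paired difference of its SB and SCt channels, so the test of its mean is a paired one, and no further block by replicate was fitted. As reported, genes with ratios between 0.21 and 0.28 in size (WNT10A, WNT7A, FZD4 and LEF1) did not pass the threshold with 4 arrays. With trend and robust options on the same arrays, WNT10A, WNT7A and FZD4 did pass it, and LEF1 did not. The 4 genes not well above background have no ratio.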
